A study of Mus musculus with 11 samples.

Results

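The subunits of the mitochondrial respiratory chain and ATP synthase were followed in sorted cells of the mouse duodenal epithelium, with the subunits encoded in the nucleus set against those encoded in mitochondrial DNA. Members were chosen by symbol (Nduf, Sdh, Uqcr, Cox4 to Cox8 and Atp5 families, and the mt-Nd, mt-Co, mt-Cytb and mt-Atp genes), without pseudogenes and with at least 15 counts in total. Of 107 symbols that matched, 10 were pseudogenes and 7 had fewer counts, which left 90 members among the 38283 genes of the count table. There were 78 nuclear members (36 of complex I, 4 of complex II, 8 of complex III, 13 of complex IV and 17 of ATP synthase). Another 12 were mitochondrial, and all 90 passed the filter on low counts. Complexes were assigned by symbol alone, so Ndufa4 is counted under complex I by its name. Cyc1 of complex III does not match by symbol and is followed below among the carriers. The 7 left out were Cox4i2 (8 counts), Cox6a2 (6), Ndufa4l2 (4), mt-Nd4l (1), and Cox7b2, Cox8b and Cox8c (0).

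The respiratory chain passes electrons from NADH and succinate to oxygen through complexes I to IV, and the proton gradient that this builds drives ATP synthase. Mitochondrial DNA encodes core subunits of complexes I, III and IV and of ATP synthase, while all of complex II and every other subunit are encoded in the nucleus and imported. The nuclear genes are transcribed in part through NRF1 and GABP (an ETS factor), and the mitochondrial genes are cut from long transcripts of both strands of the circular genome.

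Cells came from 2 mouse strains on standard chow. In Neurod1-cre-eYFP mice (NeuroD1 below), Cre driven by Neurod1, a transcription factor of enteroendocrine cells, switches on a yellow fluorescent protein, and there were 3 libraries of positive cells (NeuroD1_positive_6360, NeuroD1_positive_6361 and NeuroD1_positive_6362) and 3 of negative cells (NeuroD1_negative_6360, NeuroD1_negative_6361 and NeuroD1_negative_6362). In GluVenus mice (Glu below), where the reporter marks cells that express proglucagon, there were 3 positive libraries (Glu_positive_5254, Glu_positive_5160 and Glu_positive_4665) and 2 negative ones (Glu_negative_5254 and Glu_negative_4665). Values below follow this order. No age or sex is given in the sources used here, the negative cells are the unlabelled remainder of the same epithelial digest, and a Cre reporter also stays on in cells that expressed Neurod1 earlier. Whether each number is a separate mouse is not stated, and p-values therefore reflect only the spread among libraries, which may be technical.

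Libraries held 2279595 to 5722381 counts. The mitochondrial ribosomal RNAs mt-Rnr1 and mt-Rnr2 are not members. Both were listed at 0 in 6 libraries (all 5 Glu libraries and NeuroD1_negative_6360). Together they took 27.5% to 33.9% of the counts in the other 5. mt-Rnr2 was also at 0 in NeuroD1_negative_6361 and NeuroD1_negative_6362, so only NeuroD1 positives had counts of it. Within NeuroD1 this listing and the reporter differ together and cannot be told apart. All 9 endocrine markers rose with the reporter in NeuroD1 and in Glu. Immune markers were lower in the positive cells, 10 of 10 in NeuroD1 and 7 of 10 in Glu, and none of the 10 was at 0 in a whole group. Their sum, in counts scaled to library size (CPM), ran from 701 to 1559 in NeuroD1 positives against 17531 to 38311 in the negatives, and from 1485 to 5135 in Glu positives against 13730 to 91176 in the negatives. Enterocyte markers were lower for 8 of 10 in NeuroD1, and in Glu for 4 of 10 with 1 higher. Their sum ran from 2369 to 3170 CPM in NeuroD1 positives against 3454 to 10877 in the negatives, and from 3386 to 3999 CPM in Glu positives against 2459 to 3210 in the negatives, and none was at 0 in a whole group. Other lists were also lower in NeuroD1 positives, namely goblet (5 of 5), Paneth (4 of 5), stromal and endothelial (4 of 6) and tuft markers (2 of 5), and in Glu goblet and tuft (1 of 5 each). Of 5 stem and proliferation markers 1 was lower in NeuroD1 positives and 0 were called in Glu. Their median log2 fold changes were -0.86 and 0.65. Their sum ran from 287 to 423 CPM in NeuroD1 positives against 542 to 795 in the negatives, and from 427 to 960 CPM in Glu positives against 476 to 484 in the negatives. Goblet markers were lower in NeuroD1 than in Glu positives too (5 of 5). They summed to 344 to 549 CPM in NeuroD1 positives against 2196 to 3131 in the negatives, and to 870 to 2511 CPM in Glu positives against 3073 to 3996 in the negatives. The part of these cell types in the results below was not tested, and in such bulk samples fewer cells of a type and less RNA per cell cannot be told apart.

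The promoters of 4 members are shown because positives lay below negatives without overlap in both strains (Cox7a1, Cox6b1 and Sdhd), or because the gene is the broadly expressed counterpart of one of these (Cox7a2). Each is the 250 bases before the RefSeq start (GRCm38.p6), on the gene's strand. The intervals are chr7:30183921-30184170 (plus strand) for Cox7a1, chr9:79759854-79760103 (minus) for Cox7a2, chr7:30626115-30626364 (minus) for Cox6b1 and chr9:50603850-50604099 (minus) for Sdhd. Capitals mark CCGGAAG (the ETS core), the NRF1 motif, GGGCGG (the GC box), CCAAT and GCCATNTTG (YY1) on either strand.
Cox7a1: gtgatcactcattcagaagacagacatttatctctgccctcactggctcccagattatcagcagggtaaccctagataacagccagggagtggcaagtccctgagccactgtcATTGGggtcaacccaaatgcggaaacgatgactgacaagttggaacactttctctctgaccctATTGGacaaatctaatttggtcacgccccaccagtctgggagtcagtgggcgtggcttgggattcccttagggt
Cox7a2: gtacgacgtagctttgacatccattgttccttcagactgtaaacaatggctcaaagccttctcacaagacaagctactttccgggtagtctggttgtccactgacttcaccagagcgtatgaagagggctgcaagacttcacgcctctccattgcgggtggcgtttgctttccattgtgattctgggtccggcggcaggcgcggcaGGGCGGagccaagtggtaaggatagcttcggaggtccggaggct
Cox6b1: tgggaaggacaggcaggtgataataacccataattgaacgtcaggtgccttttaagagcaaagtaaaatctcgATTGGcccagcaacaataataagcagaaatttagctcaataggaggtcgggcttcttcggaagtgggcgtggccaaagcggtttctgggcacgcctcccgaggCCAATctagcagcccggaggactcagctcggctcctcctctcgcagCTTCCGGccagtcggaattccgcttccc
Sdhd: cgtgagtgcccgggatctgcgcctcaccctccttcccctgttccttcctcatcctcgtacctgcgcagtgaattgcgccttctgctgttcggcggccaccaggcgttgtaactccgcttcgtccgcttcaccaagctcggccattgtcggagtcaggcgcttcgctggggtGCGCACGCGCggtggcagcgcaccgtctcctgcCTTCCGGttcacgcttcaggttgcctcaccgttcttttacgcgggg

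Promoters were found for 64 of the 78 nuclear members. The NRF1 motif was in 13 of the 64 (20.3%), against 4.23% of 27018 genes with a promoter of the same length, and the ETS core in 12 (18.8%), against 7.83%. The GC box was in 22 (34.4%), against 35.4%, CCAAT in 28 (43.8%), against 37.5%, and the YY1 motif in 3 (4.69%), against 1.54%. Of these 4 promoters, that of Sdhd holds an NRF1 and an ETS motif, that of Cox6b1 an ETS motif and a pair of CCAAT boxes, that of Cox7a1 a pair of CCAAT boxes and that of Cox7a2 a GC box. Among all members whose positives lay below negatives without overlap in both strains, 9 had a promoter. The NRF1 motif was in 1 of the 9 (11.1%) and the ETS core in 2 (22.2%). The GC box was in 2 (22.2%), CCAAT in 4 (44.4%) and the YY1 motif in 0. A match is a description of the letters and does not show that a factor binds.

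Per library, nuclear subunits summed to 6940, 6213 and 5407 CPM in the NeuroD1 positive libraries, and to 10597, 9011 and 9346 CPM in the negative ones. CPM here are scaled by the trimmed mean of M values (TMM). The groups did not overlap, with means of 6187 ± 767 (SD, n = 3) and 9651 ± 836 (SD, n = 3). In Glu the nuclear sum was 6236, 5664 and 6919 CPM in the positive libraries, and 8509 and 6552 CPM in the negative ones. These groups overlapped.

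The 12 mitochondrial subunits summed to 29391, 38176 and 36339 CPM in NeuroD1 positive libraries and to 76361, 69756 and 96702 CPM in the negative ones, again without overlap. In Glu positive libraries they summed to 159053, 119249 and 48364 CPM, and in the negative ones to 99962 and 40150 CPM. Glu_positive_4665 and Glu_negative_4665 were both low, and Glu_positive_5254 and Glu_negative_5254 were both high, so the spread inside each Glu group was wider than the distance between the groups.

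The ratio of mitochondrial to nuclear subunit counts, which no scaling factor touches, was 4.24, 6.14 and 6.72 in NeuroD1 positive and 7.21, 7.74 and 10.3 in NeuroD1 negative libraries. All 3 positives lay below all 3 negatives, and the mean log2 ratio was lower by 0.57 (-0.57). In Glu it was 25.5, 21.0 and 6.99 in positive libraries and 11.8 and 6.13 in negative ones. The mean log2 ratio was 0.87 higher in Glu positives, but the groups overlapped, since Glu_positive_4665 lay between the negatives, and single libraries moved it from 0.40 (without Glu_negative_4665) to 1.45 (without Glu_positive_4665). Between strains, the mean log2 ratio was -1.48 in NeuroD1 positives relative to Glu positives and -0.03 in NeuroD1 negatives relative to Glu negatives. As sums over chosen members these ratios are descriptions and carry no p.

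**Figure D1:**
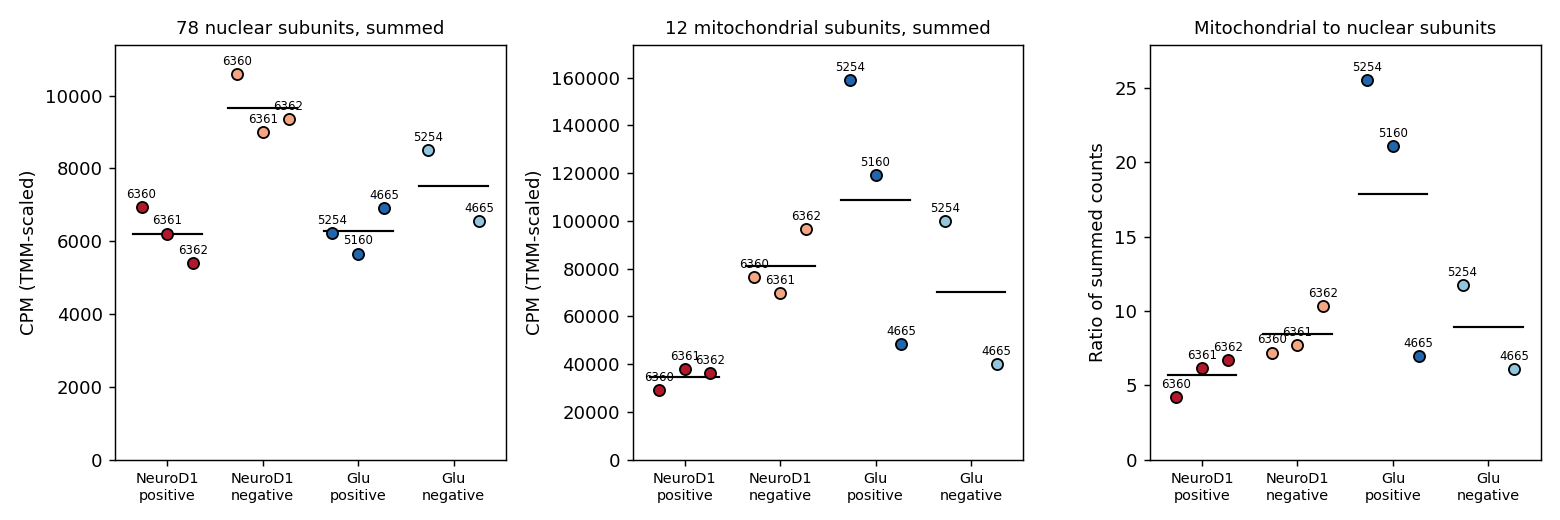
Summed CPM of the 78 nuclear subunits (left) and the 12 mitochondrial subunits (middle), and the ratio of their summed counts (right), with 1 labelled point per library and the group mean as a line. NeuroD1 positives lie below NeuroD1 negatives in all 3 panels, while the Glu groups overlap, with ratios of 25.5 and 21.0 in Glu_positive_5254 and Glu_positive_5160 and 6.99 in Glu_positive_4665.

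In the NeuroD1 strain 6 of 78 nuclear members were lower in positive cells and 0 were higher (edgeR quasi-likelihood test, adjusted p under 0.05). Over all 14332 genes tested, 14.2% passed in either direction, 7.61% lower and 6.57% higher, so the share of nuclear members called was near the background. Their log2 fold changes still lay mostly below 0, in 68 of 78, with a median of -0.58 beside 0.02 for all genes. The groups did not overlap for 38 of 78, where 35.5% of all genes showed this in either direction. Of the 12 mitochondrial members 3 were lower, all 12 had a log2 fold change below 0, and the median was -1.03.

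Of the 36 nuclear members of complex I, which takes electrons from NADH, 0 passed in the NeuroD1 or the Glu comparison with edgeR. Of all genes tested, 14.2% and 6.64% did. With an unadjusted p under 0.05 there were 2 and 4 of the 36, against 26.4% and 23.4% of all genes. The medians of the 36 were -0.52 and -0.46 on the log2 scale. The 2 highest per kb of exon were Ndufa1 (124 CPM per kb) and Ndufb9 (80.6 CPM per kb), both accessory subunits. The highest Ndufa1 value, 181 CPM, came from Glu_positive_5254, and the remaining 10 libraries ranged from 27.6 to 53.1 CPM.

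Complex II, succinate dehydrogenase, has 4 subunits, all nuclear. All 4 were without overlap between NeuroD1 groups, as were 35.5% of all genes in either direction. Sdhb, the iron-sulfur subunit, was at 39.3, 25.9 and 22.7 CPM in NeuroD1 positive and 75.1, 66.3 and 93.4 CPM in NeuroD1 negative libraries. It fell by 1.42 ± 0.40 on the log2 scale (SE, edgeR adjusted p = 0.0216). In Glu it was at 23.1, 23.8 and 34.0 CPM in positive and 83.6 and 51.5 CPM in negative libraries, with a log2 fold change of -1.32 ± 0.43 (edgeR adjusted p = 0.0722), which did not pass. Sdhd, which anchors the complex in the membrane, passed in Glu and not in NeuroD1. It was at 124, 136 and 102 CPM in NeuroD1 positive and 206, 151 and 214 CPM in negative libraries, with -0.65 ± 0.35 (edgeR adjusted p = 0.247). In Glu it was at 24.0, 44.8 and 58.5 CPM in positive and 109 and 102 CPM in negative libraries, and fell by 1.31 ± 0.38 (edgeR adjusted p = 0.0470). The difference between the 2 strains' contrasts was -0.10 ± 0.59 for Sdhb and 0.65 ± 0.52 for Sdhd, neither of which passed (edgeR adjusted p = 0.977 and 0.675).

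Of the 8 nuclear members of complex III, which hands electrons to cytochrome c, 0 passed in NeuroD1 and 1 fell in Glu. Of all genes tested, 14.2% and 6.64% passed in either direction. The member called in Glu was Uqcr10, a small subunit, at 16.7, 18.6 and 35.3 CPM in Glu positive and 69.2 and 62.1 CPM in negative libraries (log2 fold change -1.47 ± 0.43, edgeR adjusted p = 0.0492). In NeuroD1 it was at 51.1, 48.8 and 46.8 CPM in positive and 121, 73.3 and 64.2 CPM in negative libraries, without overlap (-0.82 ± 0.40, edgeR adjusted p = 0.196).

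Complex IV, cytochrome c oxidase, held the nuclear member with the largest called change. Cox7a1, the form of subunit VIIa known from heart and skeletal muscle, was at 4.77, 2.29 and 4.45 CPM in NeuroD1 positive and 34.9, 29.6 and 44.5 CPM in NeuroD1 negative libraries. It fell by 3.22 ± 0.65 on the log2 scale (edgeR adjusted p = 0.00226), and was called under all 22 alternatives. Of the other NeuroD1 calls, Sdhb and mt-Co1 were kept under 18 of 22, Cox5a 17, Atp5a1 and mt-Co2 16, mt-Cytb 14, Cox7b 13 and Atp5o 12, and of the Glu calls Sdhd and Cox4i1 under 10 and Uqcr10 under 8. In Glu, Cox7a1 was at 3.03 and 3.10 CPM in Glu_positive_5254 and Glu_positive_5160 but at 11.3 CPM in Glu_positive_4665. The Glu negative libraries were at 23.7 and 14.0 CPM, and its log2 fold change of -1.65 ± 0.65 did not pass (edgeR adjusted p = 0.136). Of the 5 erythroid and muscle markers, Ckm was at 0 in all 4 groups and 1 of 4 tested, Hba-a1 of red cells, was lower in NeuroD1 positives. The list summed to 1.10 to 13.3 CPM in NeuroD1 positives against 7.86 to 25.0 CPM in the negatives, and to 1.85 to 12.4 CPM in Glu positives against 12.8 to 31.8 CPM in the negatives, and its part in the Cox7a1 result was not tested.

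For its paralogs the groups overlapped. Cox7a2, the broadly expressed form, was at 40.4, 61.8 and 30.7 CPM in NeuroD1 positive and 87.2, 66.8 and 45.4 CPM in negative libraries, which overlap (-0.59 ± 0.42, edgeR adjusted p = 0.419). Cox7a2l, which takes part in joining complexes III and IV, was at 269, 173 and 152 CPM in positive and 169, 151 and 110 CPM in negative libraries (0.46 ± 0.35, edgeR adjusted p = 0.452). Differences between paralogs were not tested.

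Cox5a and Cox7b, also of complex IV, fell in NeuroD1. Cox5a was at 22.04, 22.1 and 26.5 CPM in positive and 80.9, 68.8 and 45.4 CPM in negative libraries (-1.46 ± 0.40, edgeR adjusted p = 0.0187). Cox7b was at 94.4, 66.4 and 84.8 CPM against 179, 143 and 158 CPM (-0.97 ± 0.31, edgeR adjusted p = 0.0407). In Glu the call was Cox4i1, the larger regulatory subunit, at 53.4, 63.7 and 113 CPM in positive and 222 and 154 CPM in negative libraries (-1.28 ± 0.38, edgeR adjusted p = 0.04999). Of the tissue-restricted paralogs, Cox6b2 reached at most 4.34 CPM in any library, while Cox6a1 and Cox8a averaged 267 and 344 CPM per kb over the 11 libraries, the latter raised by Glu_positive_5254 (below), so that their order is uncertain.

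ATP synthase had 2 of 17 nuclear members (11.8%) lower in NeuroD1 and 0 called in Glu. Of all genes tested, 14.2% passed in either direction in NeuroD1, 7.61% of them lower, and 6.64% in Glu, so the NeuroD1 share was near the background. Atp5a1, the alpha subunit of the catalytic head, was at 682, 533 and 496 CPM in NeuroD1 positive and 1365, 1060 and 1054 CPM in negative libraries (-1.02 ± 0.31, edgeR adjusted p = 0.0306). In Glu its groups overlapped, at 498.5, 770 and 921.5 CPM in positive and 850 and 637 CPM in negative libraries (-0.03 ± 0.34, edgeR adjusted p = 0.979). Atp5o, part of the stalk, fell by 1.07 ± 0.34 in NeuroD1 (edgeR adjusted p = 0.0401). Its exons overlap other annotated genes and its deposited counts are not all whole. Exon overlap with another gene on either strand holds for 27 nuclear members. Among the called ones, Atp5a1, Cox5a, Cox4i1 and Atp5d overlap a gene on the other strand. Of the mitochondrial members, mt-Atp6 overlaps mt-Atp8 and mt-Co3 on the same strand. Atp5b, the beta subunit, had the highest level per kb of the nuclear ATP synthase members (434 CPM per kb) and did not pass (-0.63 ± 0.28, edgeR adjusted p = 0.164). Of the 3 genes for the c subunit of the membrane ring, which make the same mature protein, Atp5g3 was at 68.5 CPM per kb, Atp5g1 at 10.7 and Atp5g2 at 3.04, and 0 of the 3 passed in either strain.

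**Figure D2:**
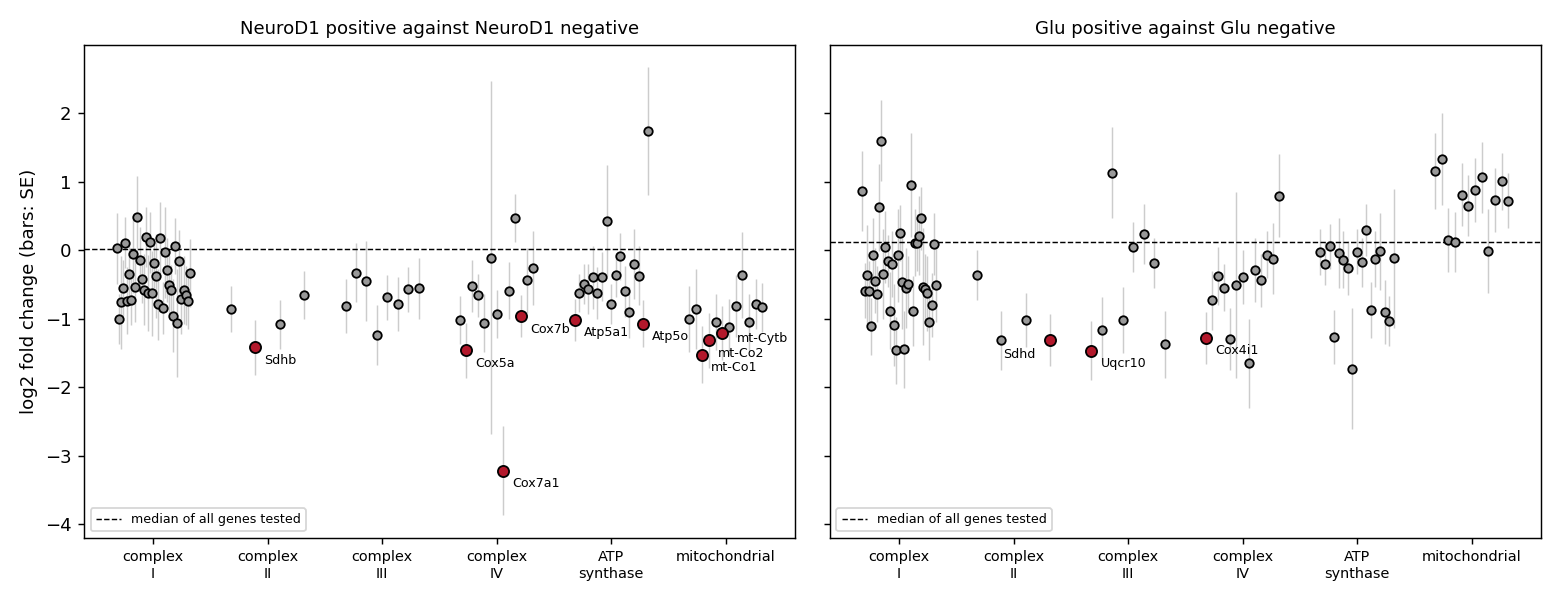
Log2 fold change of each member (points, with SE bars) in positive against negative cells, by complex, for the NeuroD1 (left) and Glu (right) strains. Red points passed an adjusted p under 0.05, and the dashed line is the median of all genes tested (0.02 and 0.12). Nuclear members lie mostly below that line in both panels, and mitochondrial members lie below it in NeuroD1 and mostly above it in Glu.

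In the Glu strain 3 of 78 nuclear members were lower (Sdhd, Uqcr10 and Cox4i1) and 0 higher, where 6.64% of all genes passed in either direction, 2.41% lower and 4.22% higher. The groups did not overlap for 27 of 78, as for 32.3% of all genes in either direction. The edgeR adjusted p of the called Sdhd, Uqcr10 and Cox4i1 lay close under 0.05. The nuclear median was -0.39 beside 0.12 for all genes, with 61 of 78 below 0. In both strains 53 of 78 nuclear members (67.9%) were below 0, as were 29.8% of all genes tested. For 11 nuclear members the positives lay below the negatives without overlap in both strains, a pattern that 6.48% of all genes showed. These were Atp5d, Atp5o, Cox4i1, Cox5a, Cox6b1, Cox7a1, Sdhb, Sdhc, Sdhd, Uqcr10 and Uqcrc1.

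**Figure D3:**
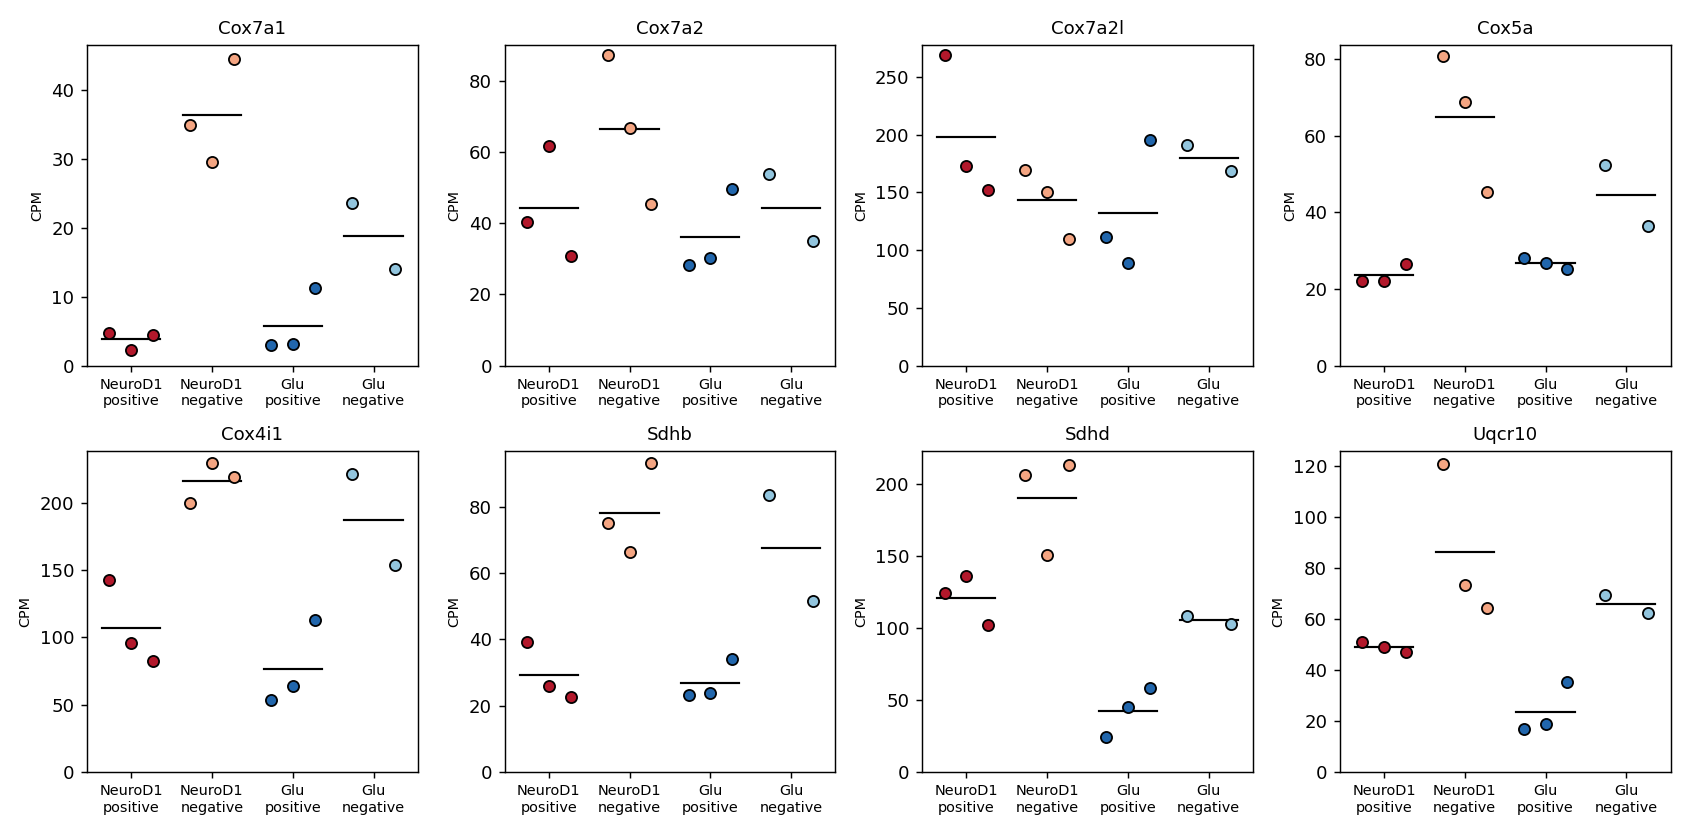
CPM of 8 nuclear members, with 1 point per library and the group mean as a line. Cox7a1, Cox5a, Cox4i1, Sdhb, Sdhd and Uqcr10 have positives below negatives without overlap in both strains, and Cox7a2 and Cox7a2l overlap.

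Glu_positive_5254 stood apart from the other libraries over the whole table, with the highest value of the 11 in 21.8% of all genes and the lowest in 17.8%. Among the 78 nuclear members it was highest in 16 (20.5%) and lowest in 24 (30.8%). Cox8a, a small subunit of complex IV, reached 748 CPM there, and the remaining 10 libraries ranged from 110 to 239 CPM. Through it, complex IV made up 24.3% of nuclear subunit CPM in that library, and 11.8% to 17.9% elsewhere. Complex II made up 3.88% there and 6.85% to 9.54% elsewhere. The 3 Glu calls (Sdhd, Uqcr10 and Cox4i1) were lost on leaving out any 1 library of either strain other than Glu_positive_4665. Without Glu_positive_5254 the only member that passed was Ndufb7, without Glu_positive_5160 it was Atp5d, and without Glu_positive_4665 there were 8, with those 3 among them.

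Mitochondrial genes were called lower in NeuroD1 positives for mt-Co1 and mt-Co2, catalytic subunits of complex IV, and mt-Cytb of complex III. mt-Co1, at M:5328-6872 of GRCm38, was at 9377, 11648 and 11834 CPM in NeuroD1 positive and 28023, 26067 and 40560 CPM in negative libraries (-1.53 ± 0.42, edgeR adjusted p = 0.0196). mt-Co2 was at 1099, 1130 and 853 CPM in positive and 2699, 2394 and 2594 CPM in negative libraries (-1.32 ± 0.40, edgeR adjusted p = 0.0329). mt-Cytb fell by 1.21 ± 0.40 (edgeR adjusted p = 0.0477). The listing of mt-Rnr2 also differs between the NeuroD1 groups. With mt-Rnr1 and mt-Rnr2 left out of the fit, all 9 NeuroD1 calls were kept. The NeuroD1 groups did not overlap for 11 of the 12, mt-Nd3 being the exception, where 35.5% of all genes showed this in either direction. In Glu 0 of the 12 passed with edgeR, 2 had an unadjusted p under 0.05, and the groups overlapped for all 12, with a median log2 fold change of 0.77 beside 0.12 for all genes. That median rests on single libraries. It was 0.27 without Glu_negative_4665, beside 0.26 for all genes, 1.60 without Glu_negative_5254, 0.45 without Glu_positive_5254 and 1.12 without Glu_positive_4665.

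Whether the contrasts differed between strains was tested as their difference (NeuroD1 minus Glu). With edgeR 0 of 90 members passed, where 0.112% of all genes did. At an unadjusted p under 0.05 there were 11 of 12 mitochondrial members, all with a negative difference, and 4 of 78 nuclear ones, against 10.9% of all genes. The mitochondrial genes are cut from shared transcripts, so they are not 12 independent observations. mt-Nd5 had a difference of -1.79 ± 0.55 (edgeR adjusted p = 0.244) and mt-Nd3 one of -0.35 ± 0.88 (edgeR adjusted p = 0.923).

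Between the positive populations, 8 of 12 mitochondrial members were lower in NeuroD1 than in Glu and 3 of 78 nuclear members were higher, where 8.13% of all genes passed in either direction, 4.95% lower and 3.18% higher. The nuclear ones were Ndufb3 of complex I (1.77 ± 0.46, edgeR adjusted p = 0.0214), Sdhd (1.503 ± 0.36, edgeR adjusted p = 0.0133) and Atp5d, the delta subunit (1.29 ± 0.37, edgeR adjusted p = 0.0363). They were kept under 15, 18 and 12 of 21 alternatives, in that order. All 3 were lost with library totals and with only the groups compared. Of the mitochondrial calls, mt-Co3, mt-Nd1 and mt-Nd3 were kept under 21, mt-Atp6 20, mt-Co2 19, mt-Nd5 16, and mt-Cytb and mt-Atp8 15. Strain, reporter and the listing of mt-Rnr1 and mt-Rnr2 differ together between the positive populations and cannot be told apart. mt-Co3 of complex IV was at 1095, 1237 and 979.5 CPM in NeuroD1 positive and 10544, 8333 and 3222 CPM in Glu positive libraries (-2.74 ± 0.43, edgeR adjusted p = 0.000665). mt-Atp6, a membrane subunit of ATP synthase, was at 2843, 3898 and 3486 against 23240, 22604 and 5449 CPM (-2.33 ± 0.50, edgeR adjusted p = 0.00748). mt-Nd1 of complex I also passed, at 2478, 3255 and 3324 CPM in NeuroD1 positive and 17970, 16552 and 5938 CPM in Glu positive libraries. mt-Atp8 passed although its groups overlapped, since Glu_positive_4665 stood at 597 CPM among the NeuroD1 values of 492 to 710.

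mt-Nd3, a membrane subunit of complex I at M:9459-9806, was listed lower in NeuroD1 than in Glu libraries in both populations. Whether counting differed between the strains, as the zeros of mt-Rnr1 and mt-Rnr2 differ between libraries, is not given in the sources used here, so counting and cells cannot be told apart here. mt-Nd3 was at 6.24, 9.92 and 7.63 CPM in NeuroD1 positive, 11.8, 7.53 and 10.9 in NeuroD1 negative, 493, 438 and 115 in Glu positive and 625 and 80.0 CPM in Glu negative libraries. Every NeuroD1 library lay below every Glu library. The log2 difference was -5.46 ± 0.68 between positives (edgeR adjusted p = 7.26e-05) and -5.10 ± 0.69 between negatives (edgeR adjusted p = 0.00049), the latter the one member called there (0.488% of all genes). Leaving out Glu_negative_5254 brought the difference between negatives to -2.98 (edgeR adjusted p = 0.0327) and leaving out Glu_negative_4665 to -5.93, and it did not pass with limma voom (-4.29, adjusted p = 0.101). It made up 0.0108% to 0.0260% of mitochondrial subunit counts in NeuroD1 and 0.199% to 0.625% in Glu libraries, whereas mt-Cytb made up 15.5% to 16.9% and 13.4% to 15.1%.

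**Figure D4:**
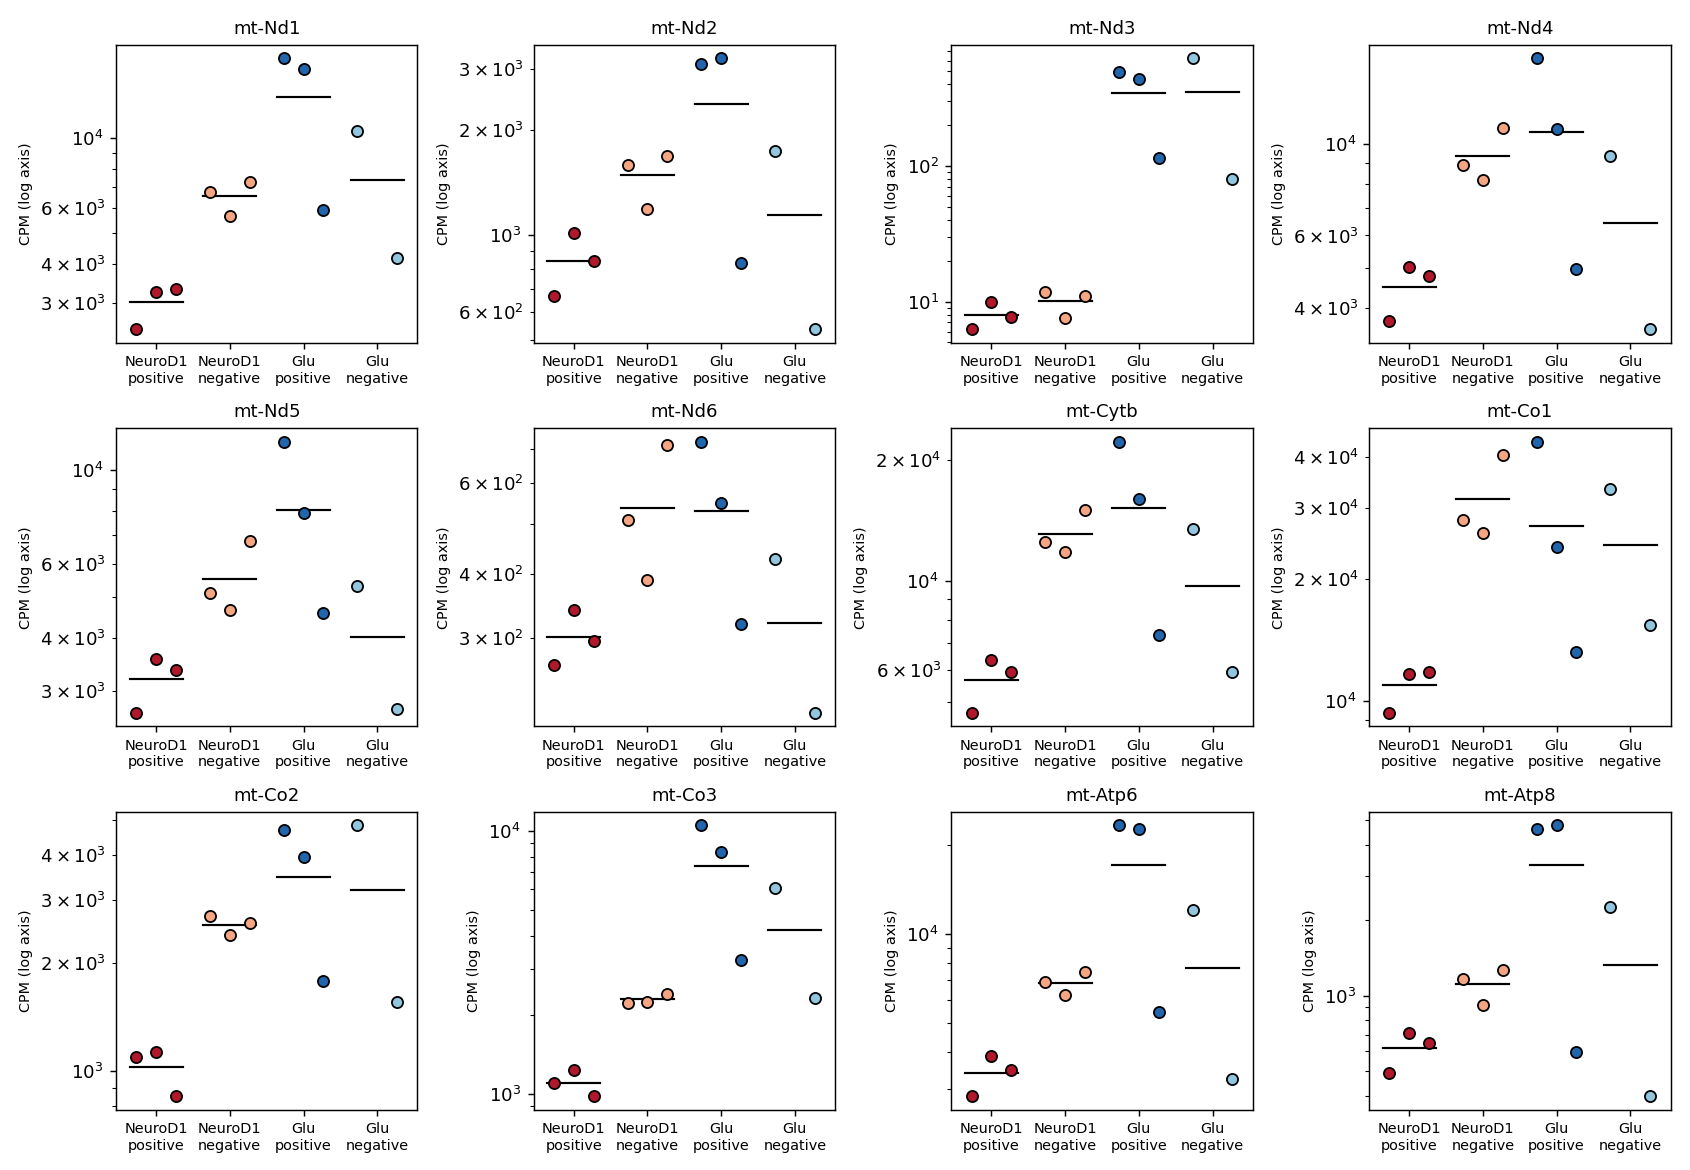
CPM (log axis) of the 12 mitochondrial members, with 1 point per library and the group mean as a line. NeuroD1 positives lie below NeuroD1 negatives for all but mt-Nd3, and mt-Nd3 is at 6.24 to 11.8 CPM in NeuroD1 and 80.0 to 625 CPM in Glu libraries.

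Other genes of mitochondrial energy metabolism were followed in 6 lists, whose counts stand beside the 14.2% of all genes called in NeuroD1 and the 6.64% called in Glu. In NeuroD1 0 of 42 assembly factors and 0 of 77 mitochondrial ribosomal proteins passed with edgeR, with medians of -0.07 and -0.23. Of 23 genes of mitochondrial DNA expression and biogenesis 1 fell, Ppargc1a, a coactivator of mitochondrial biogenesis, from a mean of 176 CPM in negative to 26.3 CPM in positive cells (-2.73 ± 0.53, edgeR adjusted p = 0.00178). Of 16 genes of the tricarboxylic acid cycle 3 fell and 0 rose, namely Mdh2 (malate dehydrogenase, -1.36), Cs (citrate synthase, -1.18) and Dlst (a subunit of oxoglutarate dehydrogenase, -1.06), and the list's median was -0.81. In glycolysis 2 of 19 rose and 4 fell. Among them the hexokinase Hk2 rose (2.58), and Pfkp (-1.86), Ldha (-1.07) and Gapdh (-0.97) fell. Of 18 carriers, the ADP/ATP carrier Slc25a4 rose (1.59) while its paralog Slc25a5 (-0.96), Cyc1 of complex III (-1.17) and the phosphate carrier Slc25a3 (-0.97) fell. These values are log2 fold changes.

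In Glu 0 assembly factors, 0 genes of mitochondrial DNA expression and 0 of the tricarboxylic acid cycle passed with edgeR. Mrpl39, a mitochondrial ribosomal protein, rose (2.00 ± 0.50, edgeR adjusted p = 0.0224), as did Hk2 (2.06) and Gpd2, the mitochondrial glycerol phosphate dehydrogenase (1.40), and Ldha, which makes lactate from pyruvate, fell (-1.15).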

How the data were processed

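Libraries were amplified from 2 ng of total RNA of sorted cells with the Ovation RNA-seq v2 kit, per the labels' protocols. Tools named in the submitters' processing notes are TopHat2 2.1.0, Cufflinks 2.2.1 and CASAVA, with build GRCm38. The annotation release was not given in the sources used here, nor was strand handling. The deposited values are the authors' expected counts (848 genes not whole), which were rounded. Symbols, exon lengths and coordinates came from GENCODE for GRCm38.

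Tests were run in edgeR 4.0.16 (R 4.3.3) by quasi-likelihood on 4 group means, over all 11 libraries, after filterByExpr and TMM scaling, and p-values were adjusted (Benjamini-Hochberg) over 14332 genes. SE is the log2 fold change divided by the square root of F. The scripts were tested on simulated data. Alternatives included DESeq2 1.42.0, limma 3.58.1 voom, other scalings and filters, leaving out each library, and a replicate block. Some genes of the lists are counted but not reported here by name. Members and lists were chosen with earlier results of these data known. Named genes were drawn from the mitochondrial genes and paralog sets, then called members by size and the 2 highest per complex. Not all of these are described singly, and mt-Nd2, mt-Nd4 and mt-Nd6 are not. The 11 members without overlap in both strains, those named for an outlying library, and the printed promoters and motifs were chosen after their values were seen. Replicates differed by more than sampling noise (chi-square per degree of freedom 15.3 to 135), so none were merged. The highest values, 127 and 135, came from pairing NeuroD1_negative_6360 with NeuroD1_negative_6361 and NeuroD1_negative_6362. mt-Rnr1, which this statistic includes, is listed at 0 in the first and at 751450 and 941440 in the others. The upper end of the range therefore also reflects that listing.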

Additional observations from a re-analysis of the deposited data

Results flagged for a closer look

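The NeuroD1 minus Glu difference in the log2 ratio of mitochondrial to nuclear subunit counts was -1.447, and it was not tested. It is listed because, between positive and negative libraries of the same number, the ratio moved by -0.77, -0.33 and -0.62 in NeuroD1 and by 1.12 (Glu_positive_5254) and 0.19 (Glu_positive_4665) in Glu, in opposite directions. This rests on matching the libraries by number, and whether the numbers pair them is not known. Against the mean of the Glu negatives, without matching, Glu_positive_5254 and Glu_positive_5160 were higher by 1.59 and 1.31, but Glu_positive_4665 gave -0.28, so the Glu libraries then do not all move one way.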

How the results depend on the processing

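Members called in NeuroD1 numbered 9, but 17 with upper quartile scaling, 20 with library totals, 14 with DESeq2 and 33 with only the groups compared; leaving out each library gave 1 to 18, 18 without Glu_positive_5254, 17 without Glu_positive_4665, and 1 to 3 without any 1 NeuroD1 library. In Glu 3 were called, 7 with upper quartile scaling, 7 with no filter, 8 with DESeq2, 0 with only the groups compared, and 0 to 8 without each library (8 without Glu_positive_4665). The difference of contrasts had 0, and 9 with no filter, all mitochondrial. Between positives 11 were called, 6 with only the groups compared, and 4 to 19 without each library (19 without Glu_positive_4665, 7 without Glu_positive_5254, and 4, 5 and 6 without NeuroD1_positive_6360, NeuroD1_positive_6361 and NeuroD1_positive_6362). Between negatives the 1 call was 0 with limma voom. The causes were not tested.

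Deviations from the group means correlated at 0.0098 to 0.046 between same-numbered libraries. With so few libraries per group, such correlations cannot decide whether the numbers pair the libraries. With the replicate block 14 members were called in NeuroD1 and 0 in Glu.

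The log2 ratio between negatives, -0.03, turned to 0.0049 with medians per kb and ran from -0.50 to 0.44 without each library (0.077 without NeuroD1_negative_6360, 0.025 without NeuroD1_negative_6361, 0.44 without Glu_negative_5254). The other ratio differences kept their direction and moved by less than the pooled SD within groups. In Glu that yardstick is weak, because the libraries spread widely. Their log2 ratio was 3.958 ± 1.008 (SD, n = 3) in positives and 3.085 ± 0.664 (SD, n = 2) in negatives, so passing it does not show that the Glu difference is stable. Of values for single called members under the alternatives, 387 kept the call, 129 lost it and 0 changed sign. With library totals the median of all genes moved from 0.02 to -0.28 in NeuroD1 and from 0.12 to -0.19 in Glu; relative to it, nuclear members were at -0.60 and -0.61, and -0.50 and -0.52.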
